A study of Mus musculus with 84 samples.

Results

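Oxidative phosphorylation is the step at which mitochondria turn the electrons of nutrients into ATP. Complex I and complex II pass electrons from NADH and succinate to ubiquinone, complex III passes them on to cytochrome c, and complex IV gives them to oxygen. Complexes I, III and IV pump protons across the inner mitochondrial membrane, and complex V, the ATP synthase, lets them flow back to make ATP. Most subunits are encoded in the nucleus and imported, while a small core is encoded by mitochondrial DNA, so the complexes need both genomes. Many, though not all, pluripotent cells rely strongly on glycolysis, and changes of respiratory gene expression are a known feature of reprogramming.

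The nuclear genes of the 5 complexes were taken by symbol from the 18909 genes of the deposited table. Symbols had to begin with Nduf followed by a, b, c, s or v and a digit, with Uqcr, with Cox and a digit from 4 to 8, or with Atp5 and a letter, or be Sdha, Sdhb, Sdhc or Sdhd. This gave 83 genes: 34 of complex I, 4 of complex II, 8 of complex III, 20 of complex IV and 17 of complex V. Ndufa4 and Ndufa4l2 were counted with complex IV, where the Ndufa4 protein resides. Atp5s and Atp5sl share the name but do not encode subunits of the enzyme. Cyc1, the cytochrome c1 of complex III, and Ndufab1 of complex I are subunits that the rule leaves out, and their values are given with the electron carriers. Of the 83 genes, 78 passed the filter on low counts and were tested. The 5 others, Cox4i2, Cox6a2, Cox8b, Cox8c and Ndufa4l2, had too few reads.

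Expression was measured by STRT RNA-seq, which tags the 5′ ends of transcripts, of 10 mouse cell groups, each with 3 biological replicates. The MEFs were fibroblasts from wild-type 129 embryos, which carried no reprogramming cassette and grew with FGF2 and heparin and without LIF. The ESCs were the TNG MKOS line, grown with LIF and without doxycycline. TNG MKOS cells carry the 4 reprogramming factors in 1 cassette (MKOS) that doxycycline switches on together with an mOrange reporter, and Nanog-GFP on 1 allele. The reprogramming cells were TNG MKOS fibroblasts from chimeric embryos, mixed as a minority with wild-type MEFs, infected with a retrovirus for either a blue fluorescent protein (Cont) or the constitutively active Smad3CA (+Sm3CA). They were given doxycycline at 300 ng/ml, LIF and vitamin C, and were sorted for mOrange on days 3, 6, 8 and 10. Reprogramming cells thus differed from MEFs in medium, infection, cassette and sort at once, and these cannot be told apart. Days also differed in their rows of the sequencing plate, and ESCs are 1 line.

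Each library held 1008596 to 2296059 reads, summed over 3 wells, or 2 wells on day 10. Levels are given as CPM, the read count of a gene scaled to the size of its library with edgeR's TMM factors, and the members took 2.47% to 3.25% of the reads in 29 libraries. ESC replicate 2 stood apart, with 4.41% of reads in members and 10935 genes detected, the fewest of all libraries, so each result that rests on it is given with and without it. Smad3 counts, which combine the gene and the vector, were higher in +Sm3CA than in Cont by 3.53, 2.02 and 3.11 on the log2 scale on days 3, 6 and 8 (adjusted p = 1.51e-08, 0.00459 and 2.38e-06). The day 6 call was lost without Cont replicate 1 or 3 or +Sm3CA replicate 2. On day 10 the difference was 1.00 (adjusted p = 0.12). The summed level of 10 fibroblast markers was 2930 to 3890 CPM in MEFs and 3.78 to 5.09 in ESCs, with Col1a2, Col3a1 and Lum at 0 in ESCs. That of 10 pluripotent cell markers was 5.47 to 7.59 CPM in MEFs and 19300 to 34300 in ESCs. A list of 6 macrophage and leukocyte markers reached 1130 CPM in MEFs, 205 to 1650 in the reprogramming libraries and at most 21.7 in ESCs. The sum of 4 neuron markers was at most 199 CPM in MEFs and at least 3340 in Cont on day 3. Tubb3 and Stmn2 were called higher in Cont on day 3 than in MEFs, Map2 was not, and Snap25 had 0 reads in both. The part of these cell types in the results was not tested. In bulk samples, fewer cells of a type and less RNA per cell cannot be told apart.

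ESCs were compared with MEFs first, to give the distance between the starting cells and the pluripotent state. The members leaned toward higher expression in ESCs, with 12 higher calls each in complexes I and IV, 7 in complex V and 2 in complex III. Of the 78 members tested, 33 were higher and 4 were lower (adjusted p under 0.05 in edgeR's quasi-likelihood test, where p-values were adjusted by Benjamini-Hochberg over 10979 genes), whereas 29.1% of all genes tested were called higher and 30.5% lower. The median log2 fold change of the members was 0.34, against 0.00 for all genes. When library totals replaced TMM, all genes shifted by -0.26 and the members split into 26 higher and 12 lower. Without ESC replicate 2, 26 were higher and 3 lower, with 20 of the 33 higher calls shared and a median of 0.24. Without MEF replicate 3, in which the members lay 0.50 log2 units below the other MEF libraries in the median and other genes 0.00, the split was 26 to 7.

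**Figure D1:**
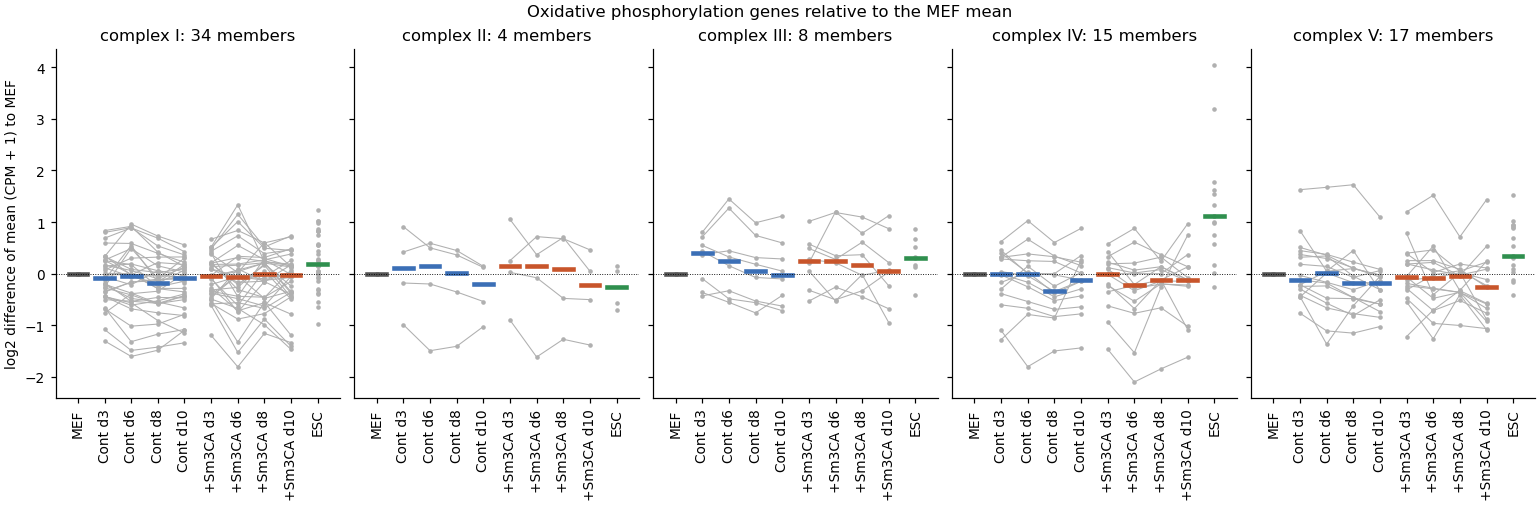
Each panel shows the members of 1 complex, with the log2 difference of the mean CPM + 1 of each of the 10 groups to that of MEFs (vertical axis). Complex IV stands out in ESCs, where its median difference is 1.11, while the medians of the reprogramming groups lie between -0.35 and 0.40 in every complex.

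Complex IV, cytochrome c oxidase, is the last complex of the chain. Among its 12 widely expressed nuclear genes, 10 were higher in ESCs than in MEFs, with Cox6b1 and Cox7a2l as the 2 that did not pass. Of all genes 29.1% were higher and 30.5% lower. Cox7c, a small subunit of the enzyme, had 1170, 1130 and 744 CPM in MEFs and 3110, 5320 and 1990 in ESCs. All ESC libraries lay above all MEF libraries (log2 fold change 1.77). Cox5a, which binds next to the core, had 107, 99.7 and 104 CPM in MEFs and 207, 528 and 218 in ESCs (1.61). Cox7b, an X-linked subunit, had 676, 668 and 419 CPM in MEFs and 1000, 2430 and 985 in ESCs (1.32). In both genes ESC replicate 2 was the highest library by far, and the groups did not overlap. Cox4i1, the main regulatory subunit, had 897, 816 and 585 CPM in MEFs and 1290, 922 and 1210 in ESCs, with a smaller log2 fold change of 0.58 ± 0.20 (SE, adjusted p = 0.0125). That call was lost without ESC replicate 1, without MEF replicate 3 and with library totals, and the start of Cox4i1 lies inside Emc8 on the other strand.

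Several complex IV calls rested on 1 library. Cox8a had 293, 1220 and 232 CPM in ESCs against 234, 199 and 161 in MEFs, and its log2 fold change of 1.54 fell to 0.41 without ESC replicate 2 (adjusted p = 0.0996). Cox6a1 had 123, 406 and 93.3 CPM in ESCs against 107, 116 and 86.8 in MEFs, and 0.98 became 0.07. Cox5b had 46, 196 and 41.6 CPM in ESCs against 43.7, 40.8 and 43.9 in MEFs, and 1.09 became 0.03. In these genes ESC replicate 2 alone stood far above the MEFs. Cox6c, Cox7a2 and Ndufa4 also lost their calls without it. Of the 15 complex IV genes tested, 12 were higher with that library and 6 without it, namely Cox4i1, Cox5a, Cox7b, Cox7c, Cox7a1 and Cox7b2. Their log2 fold changes without that library were 0.71, 1.03, 0.76 and 1.32 for the 4 widely expressed genes, and the median of complex IV went from 1.09 to 0.45. The direction of the complex held under all scalings, with 10 higher and 1 lower under library totals and 12 and 0 with DESeq2's size factors.

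**Figure D2:**
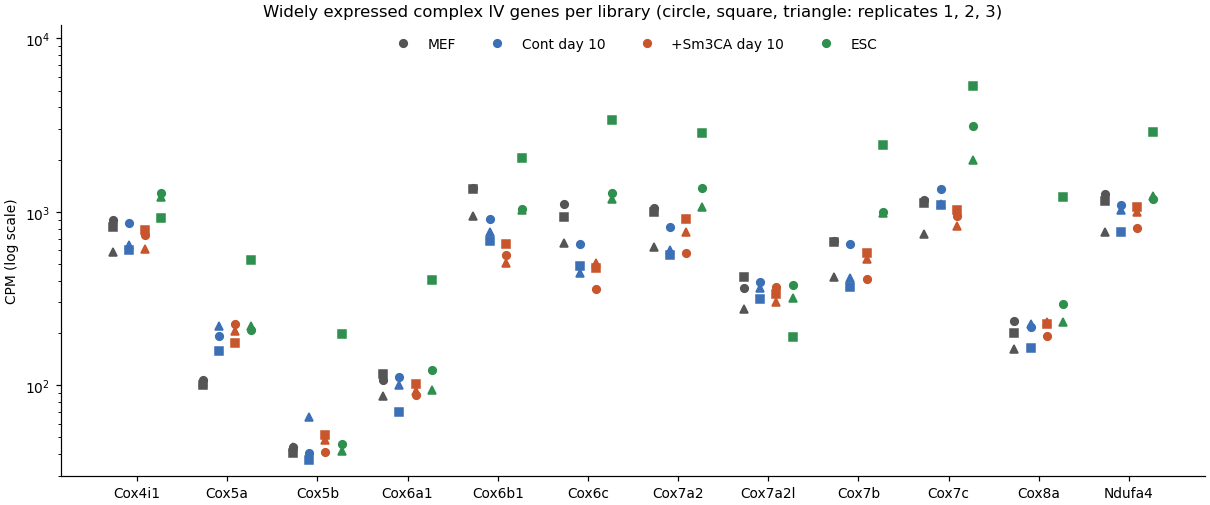
CPM on a log scale of the widely expressed complex IV genes in single libraries, coloured by group, with circles, squares and triangles for replicates 1, 2 and 3. ESC replicate 2 (square) lies far above the other ESC libraries for Cox8a, Cox6a1 and Cox5b (1220, 406 and 196 CPM), while Cox7c is higher in all 3 ESC libraries than in MEFs.

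The members are short, and the ratio of ESC replicate 2 to the other ESC libraries differed between classes of transcript length. The 75 members with a mean of at least 10 CPM and a known length were higher in this library than in the mean of the other ESC libraries by a median of 0.43 on the log2 scale, whereas 6857 other genes had a median of -0.09. Their median transcript length was 782 bases, against 2836 bases for the other genes. Among transcripts under 700 bases the median was 0.91 for 31 members and 0.47 for 169 other genes. Between 1000 and 2000 bases it was -0.68 for 21 members and -0.52 for 1624 other genes. Between 700 and 1000 bases it was 0.30 for members and -0.07 for other genes, and other genes were at -0.10 between 2000 and 4000 bases and at 0.08 above. The ratio was thus high under 700 bases and low from 1000 to 2000 bases in both sets, and did not go one way over all lengths. Whether length or another property of this library gave these values was not tested.

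**Figure D3:**
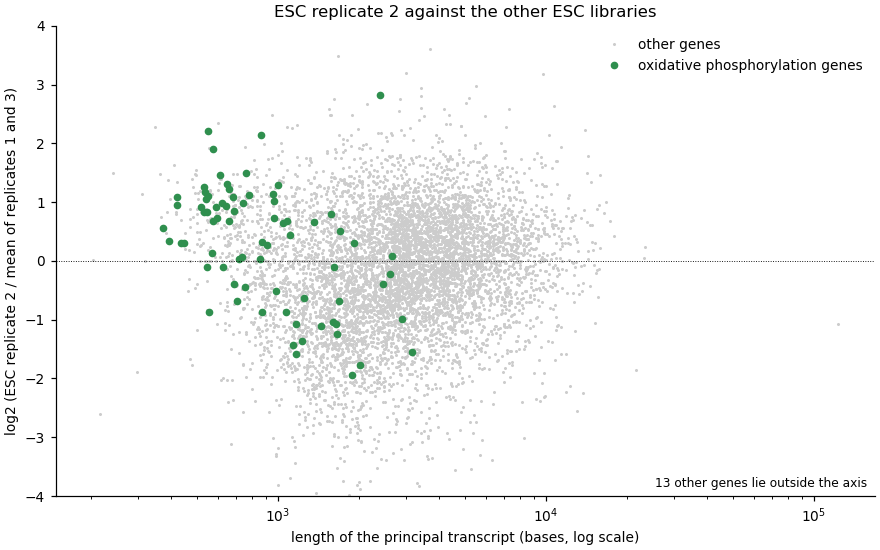
Log2 ratio of ESC replicate 2 to the mean of ESC replicates 1 and 3 against the length of the principal transcript (log scale), with members in colour over all other genes. Members under 700 bases have a median ratio of 0.91 and members of 1000 to 2000 bases one of -0.68, and 13 genes lie outside the axis.

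Complex IV also has isoforms that are restricted to some tissues, and 2 of these set ESCs apart most clearly. Cox7b2, known from testis, lies at chr5:71442824-71548205 on the minus strand (GENCODE annotation of GRCm38). It had 22, 16 and 17 reads in the ESC libraries, or 13.9, 18.3 and 14.4 CPM. It had 0 reads in all libraries of MEFs, of Cont on days 6 and 8 and of +Sm3CA on days 3, 6 and 8. Its 4 remaining reads fell on Cont day 3 (2 reads), Cont day 10 (1 read) and +Sm3CA day 10 (1 read). Taking a floor of 3 reads over the MEF libraries, which covers counting error only, its level was at least 24.8-fold higher in ESCs (adjusted p = 1.03e-05).

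Cox7a1, the heart and skeletal muscle isoform of subunit 7a, lies at chr7:30184144-30186078 on the plus strand. It had 10.3, 8.03 and 2.71 CPM in MEFs, 1.8, 3.46 and 1.66 in Cont on day 3, and 90.7, 83.5 and 41.6 in ESCs. No ESC library overlapped with any other group, and the log2 fold change between ESCs and MEFs was 3.38 ± 0.46 (SE, adjusted p = 4.08e-08), or 3.27 without ESC replicate 2. In Cont it rose again to 4.14, 8.53 and 13 CPM on day 10, by 1.97 from day 3 (adjusted p = 0.0212). In +Sm3CA it went from 2.61, 5.51 and 1.41 CPM on day 3 to 9.39, 10.4 and 17.5 on day 10, by 1.93 (adjusted p = 0.00896). These rises rest on 10 and 16 reads on day 3, and each call was lost when 1 of several libraries was left out, among them Cont day 10 replicate 3 and +Sm3CA day 10 replicate 3. The list of 5 muscle markers did not exceed 1.89 CPM in ESCs, with Myh3, Tnnt3 and Myog at 0.

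The other restricted isoforms were low or moved differently. Cox6b2, a testis isoform of subunit 6b, had 222, 184 and 99.2 CPM in MEFs, 75, 84.7 and 74 in Cont on day 3, and 225, 109 and 175 in ESCs. It fell by 1.11 ± 0.27 on the log2 scale from MEFs to Cont day 3 (adjusted p = 7.09e-04), with no overlap, and differed between ESCs and MEFs by 0.03, with overlap. Cox8c was seen only in ESCs, at 1, 3 and 4 reads. Ndufa4l2, a gene known to respond to hypoxia, had 3, 3 and 10 reads in ESCs, none in MEFs and at most 4 in any reprogramming library. Cox4i2, Cox6a2 and Cox8b had at most 3, 10 and 1 reads in any library.

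In complex V, the ATP synthase, calls went in 1 direction. Of its 17 genes tested, 7 were higher in ESCs than in MEFs and 0 lower, against 29.1% and 30.5% of all genes. The ratio of its summed level between ESCs and MEFs was smaller with library totals, as given in the closing section. Atp5a1 and Atp5b encode the alpha and beta subunits of the catalytic head, with log2 fold changes of 0.95 and 0.69. The ring that turns in the membrane is built from subunit c, which Atp5g1, Atp5g2 and Atp5g3 encode with the same mature protein. Atp5g2 had 69.7, 77.6 and 65.1 CPM in MEFs and 192, 299 and 122 in ESCs, by 1.52 ± 0.23 (SE, adjusted p = 2.09e-07). Atp5g3 had 621, 755 and 450 CPM in MEFs and 1150, 1130 and 1080 in ESCs, and Atp5g1 had 386, 428 and 270 against 596, 542 and 428. All 3 genes were higher in each ESC library than in any MEF library, by 0.88 for Atp5g3 and 0.53 for Atp5g1. The call of Atp5g1 was lost without ESC replicate 1 or MEF replicate 3 and with library totals, and those of Atp5g2 and Atp5g3 were kept each time a library was left out. Atp5j, the coupling factor 6 of the stalk, had 999, 998 and 689 CPM in MEFs and 1470, 2730 and 1290 in ESCs (1.03). The starts of Atp5j and Atp5a1 lie inside Gabpa and Haus1 on the other strand. Without ESC replicate 2, 8 genes of complex V were higher and 0 lower.

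Complex I held both directions. Of its 34 genes, 12 were higher and 3 lower in ESCs, against 29.1% and 30.5% of all genes. Only Ndufs1 of the 7 core genes passed, with 71.1, 70.3 and 61.8 CPM in MEFs and 116, 90.4 and 95 in ESCs (0.58). Without ESC replicate 2, Ndufa1, Ndufa7, Ndufb2, Ndufb3, Ndufb8 and Ndufs4 lost their higher calls and Ndufa13 its lower call. The core genes Ndufv1 and Ndufv2 were then called higher. The core subunits carry the cofactors of electron transfer, while the accessory ones surround them. Ndufa6, an accessory subunit of the matrix arm, had 208, 201 and 178 CPM in MEFs and 404, 627 and 353 in ESCs (1.24). Ndufs6, which is needed late in the assembly of complex I, had 213, 204 and 126 CPM in MEFs and 368, 390 and 341 in ESCs (1.02). Ndufa8, an accessory subunit that faces the intermembrane space, went the other way, from 272, 323 and 221 CPM to 145, 140 and 128, and fell by 0.98 ± 0.19 (SE, adjusted p = 3.20e-05). None of these 3 genes overlapped between the groups, and their log2 fold changes without ESC replicate 2 were 0.95, 0.97 and -0.99. The starts of Ndufs1 and Ndufs6 lie inside Eef1b2 and Mrpl36 on the other strand. Ndufa2 had 777, 737 and 707 CPM in MEFs and 453, 627 and 330 in ESCs and fell by 0.66, a call that was lost without ESC replicate 3. The direction of complex I as a whole depended on the scaling, with 12 higher and 3 lower calls under TMM and 8 and 7 under library totals.

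Complexes II and III, the smallest sets, had the fewest calls, with 1 lower of 4 genes in complex II and 2 higher of 8 in complex III. Over all genes 29.1% were higher and 30.5% lower. The median of complex III, 0.31, was above that of complex I, 0.19. Sdhb, the iron-sulfur subunit of succinate dehydrogenase, had 318, 397 and 270 CPM in MEFs and 246, 93.8 and 265 in ESCs. It fell by 0.69 ± 0.25 (SE, adjusted p = 0.0159), and by 0.37 without ESC replicate 2 (adjusted p = 0.148). The call was also lost without MEF replicate 2. The flavoprotein gene Sdha and the membrane anchor genes Sdhc and Sdhd did not pass, and their ESC libraries had 212, 112 and 237, 225, 71 and 196, and 397, 148 and 370 CPM. In all 4 genes ESC replicate 2 was the lowest ESC library. In complex III, Uqcrfs1, the Rieske iron-sulfur protein, had 59.5, 55.5 and 57.5 CPM in MEFs and 83.1, 141 and 94.1 in ESCs (0.87). Uqcr10 had 699, 693 and 477 CPM in MEFs and 1060, 1130 and 784 in ESCs (0.67). Both were higher in every ESC library than in any MEF library. The other 6 genes of complex III did not pass. Without ESC replicate 2, Uqcrfs1 and Uqcr10 kept their calls, Uqcrc1 and Uqcrc2 were also called higher, and Uqcrq was called lower.

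**Figure D4:**
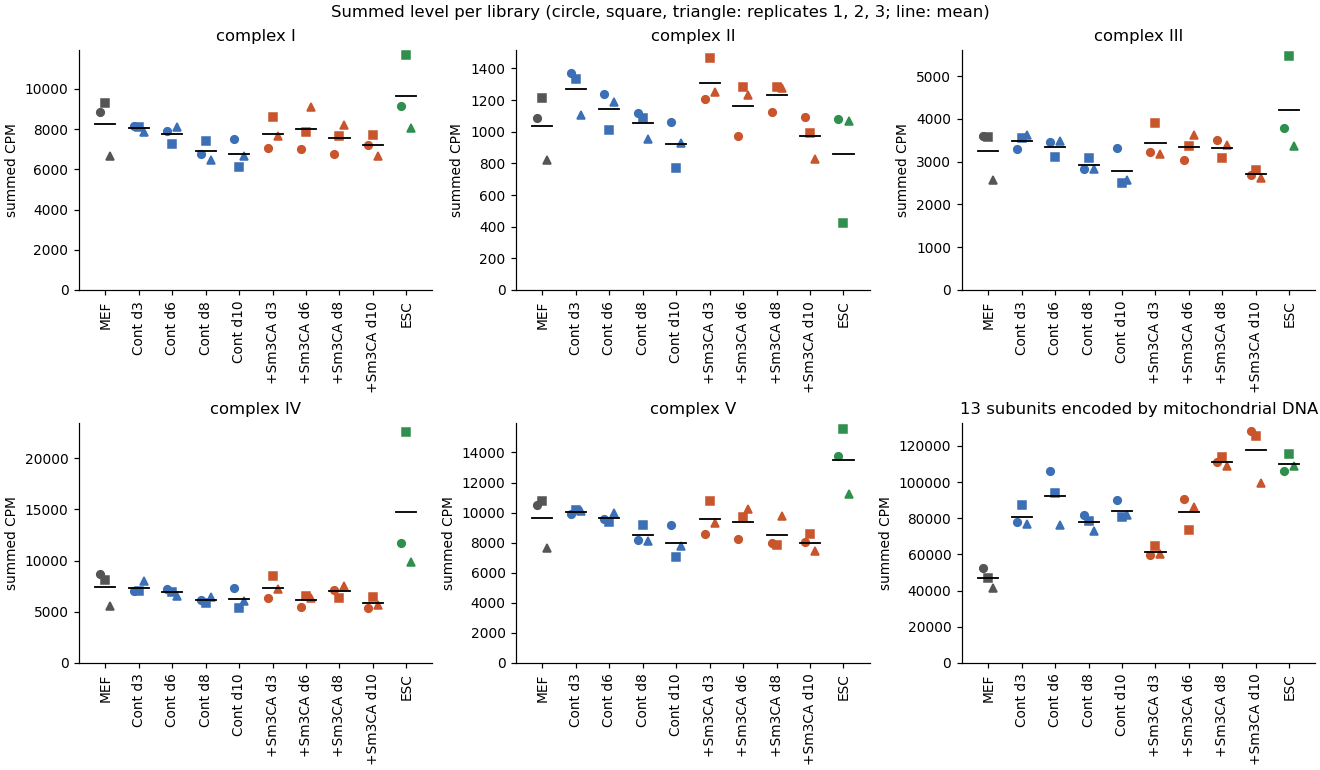
Summed CPM of the members of each complex, and of the 13 subunits encoded by mitochondrial DNA, in every library of the 10 groups, with circles, squares and triangles for replicates 1, 2 and 3 and a line at the mean. Complex IV reaches 9856 to 22596 CPM in ESCs against 5514 to 8647 in MEFs, and the mitochondrial sum has a mean of 46901 CPM in MEFs and 80625 in Cont on day 3.

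The promoters of members are shown because nuclear respiratory genes are known to carry sites for NRF1, for ETS factors such as GABP and for YY1. RefSeq promoters (GRCm38.p6, 250 bases before to 50 bases after the start site) matched 65 of the 83 members. They were searched on both strands for the letters GCATGCGC, the core of the NRF1 motif (GCGCATGC on the other strand, so that copies can overlap), CCGGAAG for ETS and AAGATGGC for YY1. The NRF1 core was found in 10 members (15.4%) and in 3.05% of 27025 genes, the ETS letters in 16 (24.6%) and 9.93%, and the YY1 letters in 9 (13.8%) and 3.19%. Among the 29 members with a promoter that were higher in ESCs than in MEFs, 3 held the NRF1 core, 3 the ETS letters and 5 the YY1 letters, and among the 36 others 7, 13 and 4 did. The 250 bases before the start site are printed 5′ to 3′ on the strand of the gene for 3 members that were higher in ESCs and hold matches, and for the 2 isoforms whose levels set ESCs apart and which hold none. Capitals mark the matches. The windows are chr15:82354292-82354541 (minus strand) for Ndufa6, chr15:102671048-102671297 (minus) for Atp5g2, chr16:84834977-84835226 (minus) for Atp5j, chr7:30183921-30184170 (plus) for Cox7a1 and chr5:71548206-71548455 (minus) for Cox7b2. Those of Atp5g2 and Atp5j lie inside the span GENCODE gives the gene, since other transcripts start upstream.
Ndufa6: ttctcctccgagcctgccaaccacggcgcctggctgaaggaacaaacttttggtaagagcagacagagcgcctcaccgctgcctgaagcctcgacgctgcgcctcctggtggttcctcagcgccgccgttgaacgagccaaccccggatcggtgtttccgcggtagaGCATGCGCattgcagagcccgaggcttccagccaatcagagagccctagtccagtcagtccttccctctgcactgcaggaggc
Atp5g2: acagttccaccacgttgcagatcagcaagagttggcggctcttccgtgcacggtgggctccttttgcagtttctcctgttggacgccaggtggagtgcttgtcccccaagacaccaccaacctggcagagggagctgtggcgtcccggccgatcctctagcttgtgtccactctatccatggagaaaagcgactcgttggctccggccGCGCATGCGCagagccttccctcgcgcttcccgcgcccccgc
Atp5j: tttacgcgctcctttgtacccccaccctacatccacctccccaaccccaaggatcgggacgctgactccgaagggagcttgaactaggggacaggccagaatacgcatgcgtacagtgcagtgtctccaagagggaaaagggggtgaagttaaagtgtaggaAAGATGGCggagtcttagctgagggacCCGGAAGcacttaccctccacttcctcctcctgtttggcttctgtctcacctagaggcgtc
Cox7a1: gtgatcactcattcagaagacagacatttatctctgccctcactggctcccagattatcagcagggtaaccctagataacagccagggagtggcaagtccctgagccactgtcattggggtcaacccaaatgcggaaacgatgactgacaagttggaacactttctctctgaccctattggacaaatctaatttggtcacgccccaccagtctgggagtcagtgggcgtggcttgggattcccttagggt
Cox7b2: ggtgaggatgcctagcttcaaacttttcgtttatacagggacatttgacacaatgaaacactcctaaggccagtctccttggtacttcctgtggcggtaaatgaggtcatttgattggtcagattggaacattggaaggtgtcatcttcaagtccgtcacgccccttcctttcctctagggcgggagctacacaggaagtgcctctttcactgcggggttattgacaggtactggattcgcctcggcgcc
Ndufa6 holds 1 copy of the NRF1 core, and Atp5g2 holds 2 that overlap. Atp5j holds the YY1 letters and the ETS letters in the window printed, which was taken because it has matches. Its other RefSeq window, chr16:84835576-84835875, holds none of the 3. Cox7a1 and Cox7b2 hold none of the 3 in the whole window. A match describes the letters and not a bound site, and no match says only that these letters are not in the window.

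The next comparison, of Cont on day 3 with MEFs, covers the first days of reprogramming. The members split evenly, with 9 higher and 11 lower of 78, against 22.6% of all genes higher and 20.9% lower, and a median of -0.03 against 0.00. With DESeq2's size factors the split was 7 to 16. Complex IV showed 0 higher and 2 lower calls, both in restricted isoforms, so its widely expressed genes did not pass in either direction. Complex III had 3 higher and 0 lower calls, and complexes I, II and V held both directions.

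**Figure D5:**
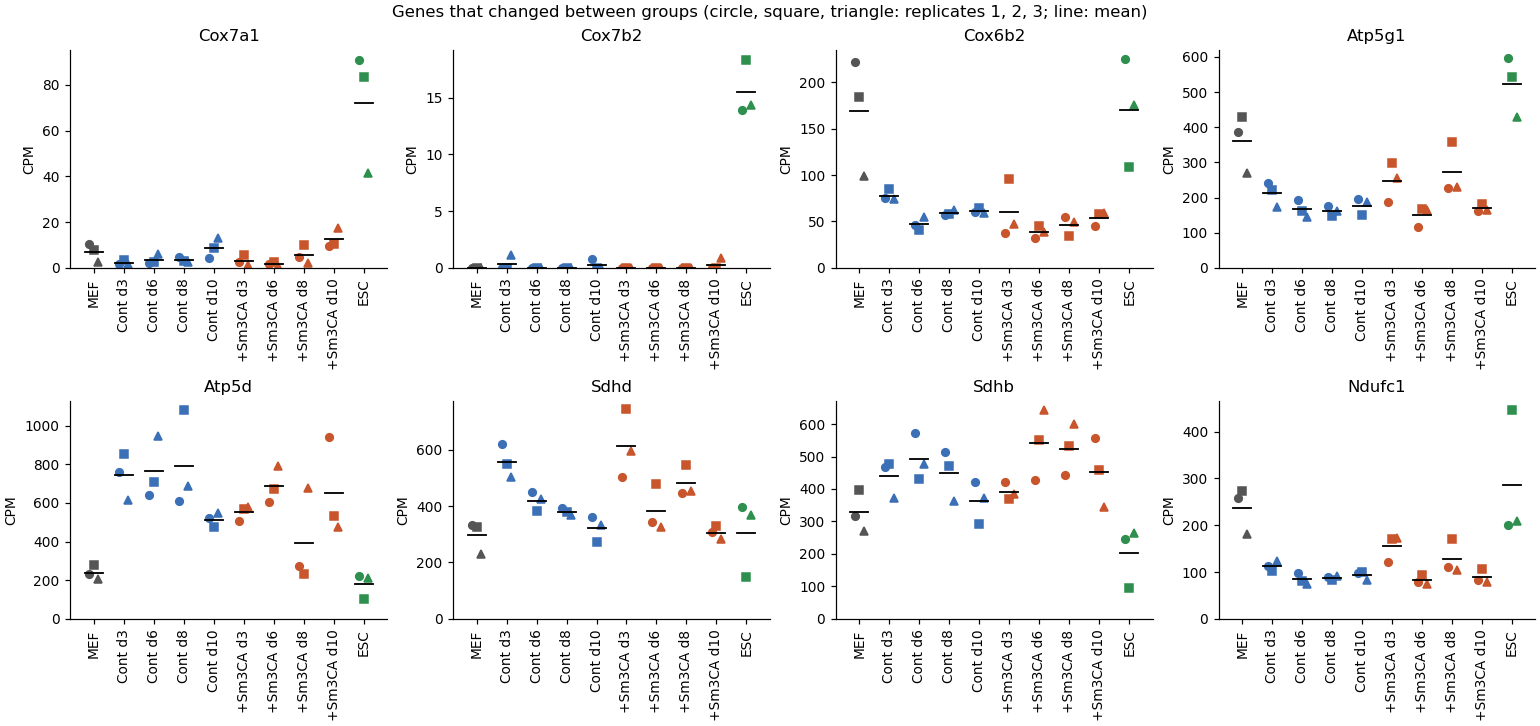
CPM per library of 8 members across the 10 groups, with circles, squares and triangles for replicates 1, 2 and 3 and a line at the mean. Cox7a1 and Cox7b2 are highest in ESCs, Atp5d rises from 207 to 280 CPM in MEFs to 616 to 854 in Cont on day 3 and is at 103 to 223 in ESCs, and Ndufc1 lies below MEFs on day 3.

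Atp5d, the delta subunit in the central stalk of ATP synthase, rose the most among called members. It had 232, 280 and 207 CPM in MEFs and 759, 854 and 616 in Cont on day 3, a log2 fold change of 1.63 ± 0.29 (SE, adjusted p = 1.61e-05), or 1.54 without MEF replicate 3. It remained at 475 to 1080 CPM in all Cont libraries and was back at 223, 103 and 212 CPM in ESCs, below every Cont library. ESCs were below Cont day 10 by 1.51 and below +Sm3CA day 10 by 1.84, comparisons that share the ESC libraries. The start of Atp5d lies inside Cbarp on the other strand, and the strand setting of the counting is not given in the sources used here.

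In complex II the 2 membrane anchors moved apart. Sdhd went from 334, 326 and 229 CPM in MEFs to 621, 549 and 502 in Cont on day 3 and rose by 0.91 ± 0.23 (SE, adjusted p = 0.00145). Sdhc went from 258, 310 and 166 to 127, 139 and 104 CPM and fell by 0.99 ± 0.26 (adjusted p = 0.00159). Neither gene overlapped between the groups, and without MEF replicate 3 the values were 0.76 and -1.21. In complex I, Ndufa3 went from 466, 476 and 313 CPM to 146, 181 and 181 and fell by 1.30, and Ndufc1 went from 259, 273 and 181 CPM to 112, 102 and 124 and fell by 1.07. Both are accessory subunits, and both calls were kept each time a library was left out. The accessory subunits Ndufa5 and Ndufa12 rose by 0.83 and 0.80, and Ndufa5 lost its call without MEF replicate 1. In complex III, Uqcrc1, a core protein of the matrix side, had 81.3, 79 and 77.6 CPM in MEFs and 155, 118 and 145 in Cont on day 3 (0.82), and Uqcrfs1 had 97.8, 76.9 and 110 (0.73). The latter call was lost without Cont day 3 replicate 3. Of the subunit c genes, Atp5g1 fell from 386, 428 and 270 CPM to 241, 221 and 173, by 0.77 (adjusted p = 0.00351). Atp5g2 and Atp5g3 did not pass.

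Between day 3 and day 10 the members' medians were below those of all genes in both series, while their lower calls were near the share over all genes. In Cont, 2 were higher and 6 lower, against 10.7% of all genes higher and 8.35% lower, with a median of -0.25 against 0.08. In +Sm3CA, 5 were higher and 11 lower, against 14.2% and 12.2%, with a median of -0.16 against 0.06. With library totals, which shifted all genes by 0.24, the split in Cont was 4 higher and 0 lower, against 1684 and 447 over all genes, and the members' median of -0.01 was again below that of all genes, 0.32. DESeq2's size factors gave 2 higher and 3 lower. The calls in Cont rested on few libraries, with 1 call in all without Cont day 10 replicate 2 or Cont day 3 replicate 1. In +Sm3CA the split with library totals was 5 to 8, and 9 to 14 calls remained when a library was left out.

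Sdhd was lower on day 10 in both series. It went from 621, 549 and 502 to 363, 271 and 333 CPM in Cont and fell by 0.79 (adjusted p = 0.0131), a call lost with library totals, without Cont day 10 replicate 2 and without Cont day 3 replicate 1. In +Sm3CA it went from 505, 744 and 594 to 307, 328 and 284 CPM and fell by 1.00 ± 0.23 (SE, adjusted p = 0.0012). Ndufa2 went from 501, 607 and 469 to 271, 257 and 274 CPM in +Sm3CA and fell by 0.98 (adjusted p = 9.45e-04), and in Cont by 0.71 (adjusted p = 0.0191). The Cont call was lost with library totals and without any 1 of 3 libraries, Cont day 3 replicate 1 and Cont day 10 replicates 1 and 2. Further falls in +Sm3CA were Uqcrq by 1.00 and Uqcr10 by 0.81 in complex III, Cox6b1 by 0.88 in complex IV and Atp5j2, subunit f of ATP synthase, by 0.86. In each of these 4 genes all day 10 libraries lay below all day 3 libraries. Uqcrc1 rose in +Sm3CA from 96, 99.2 and 79.4 to 191, 177 and 155 CPM, by 0.93 (adjusted p = 0.00223). Ndufv2, a core subunit with an iron-sulfur cluster, rose from 164, 195 and 167 to 291, 305 and 263 CPM, by 0.71 (adjusted p = 0.00469). The replicate numbers pair the libraries over days within a series, and with the replicate block the calls were 2 higher and 4 lower in Cont, where Uqcr11 and Atp5k lost theirs, and 5 and 10 in +Sm3CA.

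Whether Smad3CA changed these genes was tested on each day. Few members passed on any day. On day 3 and day 6, 0 of 77 members passed with edgeR and 0 with DESeq2's Wald test, and 4 and 3 had an unadjusted p under 0.05. Of all 10237 genes tested, 0.0195% and 0.00977% were called on these days. On day 8, 2 members passed, against 1.04% of all genes, and 18 had an unadjusted p under 0.05. On day 10, 0 passed with either tool, against 3.58% of all genes, 6 had an unadjusted p under 0.05, and the smallest adjusted p was 0.102. The median standard error of a member was 0.18 to 0.19 on the log2 scale on these 4 days, and 74, 74, 64 and 75 of 77 members differed by less than 0.5 on the respective days. The change of the vector difference from day 3 to day 10 was called for 0 members with either tool, against 1.01% of all genes, with 7 at an unadjusted p under 0.05 and a smallest adjusted p of 0.213. These counts at unadjusted p, here and for the subunits encoded by mitochondrial DNA, are given without the share over all genes. They are not read as a result about the members.

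The 2 calls on day 8 were both in ATP synthase. Atp5g1 had 175, 149 and 162 CPM in Cont and 227, 358 and 231 in +Sm3CA and rose by 0.76 ± 0.19 (SE, adjusted p = 0.0391). The groups did not overlap, and the call was lost without any 1 of the Cont libraries or without +Sm3CA replicate 2. Atp5d had 609, 1080 and 688 CPM in Cont and 274, 230 and 678 in +Sm3CA and fell by 1.01 ± 0.26 (adjusted p = 0.0492). It is named for being the only other call, since its groups overlapped, with +Sm3CA replicate 3 among the Cont libraries. Without +Sm3CA day 8 replicate 3, 8 members were called on that day, and without Cont replicate 2 or 3 or +Sm3CA replicate 2 there were 0. With library totals 5 were higher and 1 lower. The summed level of complex IV on day 8 was 6144, 5822 and 6398 CPM in Cont and 7117, 6383 and 7509 in +Sm3CA, and on day 10 it was 7359, 5383 and 6042 against 5365, 6463 and 5700. The sums, which weigh abundant members most, overlapped on both days.

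On day 10 both series were still well apart from ESCs. Against Cont day 10, 43 members were higher in ESCs and 4 lower, where 21.5% of all genes were higher and 30.3% lower, with a median of 0.70 against -0.15 for all genes. Against +Sm3CA day 10, 44 were higher and 6 lower, where 18.6% and 27.2% of all genes were called, with a median of 0.68 against -0.15. The comparisons share the ESC libraries, and their values are given side by side. With library totals, which shifted all genes by -0.42 and -0.38, the splits were 26 to 10 and 29 to 12. Without ESC replicate 2 there were 39 higher and 4 lower calls, 34 of them among the 43, and 39 and 6, 36 of them among the 44.

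In complex IV 14 of 15 genes were higher in ESCs in each comparison, all but Cox7a2l, which stabilizes the association of complexes III and IV, and 8 and 9 were higher without ESC replicate 2. Cox7b had 651, 369 and 416 CPM in Cont and 407, 575 and 532 in +Sm3CA on day 10, below the 1000, 2430 and 985 of ESCs, by 1.62 and 1.54. Cox6b2 had 60.4, 64.4 and 59.5 in Cont and 45.1, 57.7 and 59.6 in +Sm3CA, below the 225, 109 and 175 of ESCs, by 1.48 and 1.66. In complex V, 12 and 13 of 17 genes were higher. Atp5g1 had 195, 150 and 187 CPM in Cont and 163, 181 and 166 in +Sm3CA on day 10, under the 596, 542 and 428 of ESCs, by 1.56 and 1.62 (adjusted p = 1.24e-07 and 8.12e-08). In complex I, Ndufc1 had 98.5, 100 and 81.9 CPM in Cont and 83.6, 106 and 78 in +Sm3CA, under the 201, 447 and 209 of ESCs, by 1.67 from +Sm3CA (adjusted p = 5.07e-07 from Cont and 3.79e-07 from +Sm3CA). Ndufc1 and Atp5g1 thus lay below MEFs on day 3 in Cont and below ESCs on day 10. None of the 7 core genes of complex I passed in either comparison, with medians of 0.25 and 0.23. Without ESC replicate 2, the core genes Ndufs8, Ndufv1 and Ndufv2 were called higher in ESCs against Cont, and Ndufs8 and Ndufv1 against +Sm3CA. Sdhb was lower in ESCs than in +Sm3CA on day 10, at 558, 457 and 343 CPM, by 1.15 ± 0.25 (SE, adjusted p = 2.18e-04), and lower than in Cont, at 420, 292 and 373, by 0.83 (adjusted p = 0.00507). The latter call was lost without ESC replicate 2. Sdha went the other way and was called higher in ESCs in both comparisons, as was Sdhc against +Sm3CA. These higher calls were kept without ESC replicate 2 and lost with library totals.

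The subunits encoded by mitochondrial DNA, which join the nuclear ones in complexes I, III, IV and V, followed another course. All 13 were higher in ESCs than in MEFs, against 29.1% of all genes, with a median of 1.14, and 11 to 13 passed when a library was left out. In Cont on day 3, 10 of 13 were already higher than in MEFs and 0 lower, with a median of 0.89. Of all genes 22.6% were higher and 20.9% lower. Their summed level was 52365, 46908 and 41431 CPM in MEFs and 77729, 87538 and 76608 in Cont on day 3, while the sum of all members was 32651, 32930 and 23155 against 29732, 30159 and 30696. The mitochondrial sums did not overlap, and those of the nuclear members did. From day 3 to day 10, 9 of 13 rose and 0 fell in +Sm3CA, where 14.2% and 12.2% of all genes did. In Cont 1 rose and 1 fell, near the 10.7% and 8.35% of all genes. On day 10 the sum was 90365, 80625 and 81673 CPM in Cont and 128430, 125646 and 99359 in +Sm3CA, where 105880, 115301 and 109165 were found in ESCs. Against Cont, 5 of 13 were higher in ESCs, where 21.5% of all genes were, and 1 without ESC replicate 2. This difference depends on the scaling, since library totals shifted all genes by -0.42 in this comparison. As a share of all reads, mitochondrially encoded genes took 15.5% to 16.5% in ESCs and 15.9% to 18.9% in Cont on day 10. These shares overlapped. Against +Sm3CA 0 passed with edgeR or DESeq2's Wald test, where edgeR called 18.6% of all genes higher and 27.2% lower. There 1 had an unadjusted p under 0.05, and 6 were lower in ESCs with library totals. In these sums all +Sm3CA libraries lay above all Cont libraries on day 10. The same held on day 8, with 81949, 78596 and 72807 in Cont and 111046, 113755 and 108805 in +Sm3CA. Day 3 had the opposite order, with 59854, 64477 and 60057 CPM in +Sm3CA, below all Cont libraries, and all 13 genes below 0 with a median of -0.38, although 0 passed with edgeR or DESeq2's Wald test and 5 had an unadjusted p under 0.05. By gene, 4 of 13 were higher in +Sm3CA on day 10 (mt-Nd3 0.78, mt-Nd4 0.62, mt-Co3 0.69 and mt-Atp6 0.71), where 3.58% of all genes were called in either direction. All 13 were above 0 and 12 had an unadjusted p under 0.05. The number of calls ranged from 0 to 5 when 1 library was left out, with 0 without Cont replicate 2 or 3 or +Sm3CA replicate 1 or 2. DESeq2's Wald test called 8. Cell type markers differed on day 10 as well. Of 9 fibroblast markers tested, 5 were lower in +Sm3CA (Col1a1, Col1a2, Postn, Fbn1 and S100a4), with summed levels of 996 to 2000 CPM in Cont and 931 to 1160 in +Sm3CA. Of 9 pluripotent cell markers, 3 were higher (Zfp42, Dppa5a and Tfcp2l1), with sums of 274 to 663 and 704 to 1570 CPM. Their part in the mitochondrial difference was not tested. On day 8, 2 passed (mt-Cytb 0.91 and mt-Atp8 0.78), against 1.04% of all genes, and 0 without Cont replicate 2 or 3 or +Sm3CA replicate 2.

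Other genes that serve the chain were counted by list, with 29.1% of all genes higher and 30.5% lower in ESCs than in MEFs. Of 40 assembly factors tested, 8 were higher and 8 lower, both under these shares, among them Cox17, the copper chaperone of complex IV, which rose by 1.35, and Cox19, which fell by 2.12. On day 3 in Cont 14 were higher and 2 lower than in MEFs, where 22.6% and 20.9% of all genes were, with Sco1, which inserts copper, up by 1.62, and 10 to 13 were higher when a library was left out. From day 3 to day 10, 1 rose and 7 fell in Cont, and 2 rose and 6 fell in +Sm3CA, where 8.35% and 12.2% of all genes fell. Of 13 genes of the TCA cycle, 2 were higher and 2 lower in ESCs than in MEFs. On day 3, 8 were higher than in MEFs and 0 lower, with Idh3a, a subunit of isocitrate dehydrogenase, up by 1.18, and 3 to 5 when a library was left out. Of 8 electron carriers and entry points, 5 were higher in ESCs and 1 lower, with the cytochrome c1 gene Cyc1 at 36.9, 26.8 and 43.9 CPM in MEFs and 86.3, 177 and 112 in ESCs (1.78). Ndufab1, also among the 5, had 80, 81.6 and 65.6 CPM in MEFs and 69.3, 227 and 78.9 in ESCs, with ESC replicate 2 alone above. Its groups overlapped, and the count for this list without that library is not given. Of 7 carriers and pores, 1 was higher and 3 lower in ESCs, where Slc25a5 and Slc25a4, which exchange ADP for ATP, differed by 1.04 and -1.12.

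Of 12 regulators of mitochondrial biogenesis, 7 were higher in ESCs than in MEFs and 0 lower, against 29.1% and 30.5% of all genes. When a library was left out, 5 to 7 were higher. Tfam, which packages and transcribes mitochondrial DNA, had 22.6, 17.4 and 8.68 CPM in MEFs, 33, 40.6 and 29.8 in Cont on day 3, and 75.6, 84.7 and 68.7 in ESCs. Each group lay wholly above the one before, by 1.10 from MEFs to Cont day 3 and by 2.25 from MEFs to ESCs. Nrf1 and Gabpa, whose proteins bind the letters searched in the promoters, were higher in ESCs by 1.33 and 1.08, and Yy1 by 0.70. Gabpa holds the start of Atp5j on its other strand. Of 9 genes of the hypoxia response, 3 were higher and 2 lower in ESCs than in MEFs, near the shares over all genes. In Cont on day 3, 1 was higher and 4 lower than in MEFs, where 22.6% and 20.9% of all genes were. From day 3 to day 10, 5 and 6 of these rose in Cont and +Sm3CA, against 10.7% and 14.2% of all genes, with Bnip3, a mitophagy receptor, up by 3.94 and 4.49 and Pdk1, which holds pyruvate back from the TCA cycle, up by 2.33 and 2.59. Ldha, a lactate dehydrogenase subunit, fell in both, by 0.79 and 0.72. The summed list had means of 1950 and 1450 CPM on days 3 and 10 in Cont and of 2130 and 1940 in +Sm3CA. Its libraries overlapped between the days in both series. They ranged from 1780 to 2040 and 1040 to 2150 CPM in Cont, and from 2010 to 2320 and 1770 to 2040 in +Sm3CA.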

How the data were processed

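STRT RNA-seq counts of 84 wells were used, mapped by their labels to 10 groups of 3 replicates. The values deposited by the authors are raw counts of reads, 1 column per well and not normalized. They are of reads and not of molecules, so intervals and floors cover counting error only. The submitters' processing notes name Bowtie 0.12.9, DESeq2 1.6.3 and mm10. Strand settings and the handling of reads shared with pseudogenes are not given in the sources used here. Members with near-identical copies, and those whose start lies inside another gene, are thus uncertain. Wells of a replicate were summed to 30 libraries.

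Libraries of 1008596 to 2296059 reads were fitted in R 4.3.3 by edgeR 4.0.16, using TMM, filterByExpr and the quasi-likelihood test, over all 30 libraries (10979 genes). The Cont and +Sm3CA series were compared in a fit of their 24 libraries (10237 genes), with Benjamini-Hochberg adjustment at 0.05. The steps were tested on simulated data. Alternatives were DESeq2's size factors and Wald test (1.42.0), library totals, no filter, other library sets, 1 well per library, the replicate block and leaving out each library. Leaving out mitochondrially encoded genes was chosen after seeing the data. The design text pairs replicates over days within a series. Same-numbered libraries of days 3 and 10 had correlations of deviations of -0.019 to 0.049 in Cont and -0.011 to 0.052 in +Sm3CA.

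The members, lists and tests were chosen with earlier results of these data known. Named per complex and comparison were the 2 called members with the largest change in each direction whose groups did not overlap, the isoform sets of complexes IV and V, complex II and Smad3. 1 result under this rule is not reported here. Cox5a, Cox5b, Cox6c, Cox7c, Atp5a1, Ndufs1, Cox8c and the list genes named were chosen after their values were seen. Figures were drawn with matplotlib 3.10.9 in Python 3.11.15.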

Additional observations from a re-analysis of the deposited data

Results flagged for a closer look

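The vector difference on day 10 minus that on day 3 was called for mt-Atp6, a membrane subunit of ATP synthase, at 1.06 on the log2 scale (edgeR's quasi-likelihood test, adjusted p = 0.0467). Of the 13 subunits encoded by mitochondrial DNA, 0 to 3 passed this test when 1 of the 12 libraries was left out, and DESeq2's Wald test called 10. For Smad3, the difference between +Sm3CA and Cont changed by -2.54 from day 3 to day 10 (adjusted p = 0.00585), a call that was lost without Cont day 10 replicate 3.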

How the results depend on the processing

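Counts of called members moved by over 1.5 times as follows. With only the libraries compared in the fit, the calls numbered 16 for ESCs against MEFs (37 with all libraries), 17 for Cont day 10 against day 3 (8), 25 for +Sm3CA day 10 against day 3 (16), 29 and 31 for ESCs against Cont and +Sm3CA on day 10 (47 and 50) and 0 for the vectors on day 8 (2). With 1 well per library they numbered 12 for Cont day 3 against MEFs (20), 3 and 10 for day 10 against day 3 in Cont and +Sm3CA, and 1 on day 8. With library totals they numbered 4 for Cont day 10 against day 3 and 6 on day 8. DESeq2's size factors gave 5 for Cont day 10 against day 3, and no filter gave 4 on day 8. The log2 ratio of summed complex V between ESCs and MEFs was 0.49 and moved to 0.23 with library totals. Leaving out 1 library gave 1 to 9 calls for Cont day 10 against day 3, 9 to 14 for +Sm3CA day 10 against day 3 and 0 to 8 on day 8. The cause was not tested.

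With the replicate block the calls were 36, 20, 6, 15, 46 and 49 in the 6 comparisons of groups, and 0, 0, 2 and 0 for the vectors on days 3, 6, 8 and 10. Numbers pair libraries only over days within a series. Of 99 calls of named members, 62 were kept each time a library was left out and 0 turned. Over all genes, calls were 4266, 2876 and 1886 with 1 well per library for ESCs and Cont day 3 against MEFs and +Sm3CA day 10 against day 3 (6542, 4770 and 2899), and 3485 and 3004 with only the libraries compared for ESCs against Cont and +Sm3CA on day 10 (5689 and 5028). For the vectors on days 3, 6 and 8 and the change of their difference, no filter gave 11, 10, 264 and 198 (2, 1, 106 and 103), 1 well gave 1, 0 and 62 for days 3 and 6 and the change, and only the libraries compared gave 5 and 25 on days 6 and 8. Low depth limits the restricted isoforms, most of which had under 10 reads in a library.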
